A study of Patiria miniata with 18 samples.

Results

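The comparison described here is between the front and the rear part of the bat star larva, *Patiria miniata*, 3 days after the larva was cut across. Its members were chosen by the fragment and collection time that the labels give. They are 2 libraries of regenerating anterior fragments and 2 libraries of regenerating posterior fragments, 4 of the 18 libraries in the series. Bipinnaria larvae aged 7 days post-fertilization were bisected through the foregut, and polyA RNA was sequenced from pools of about 300 sibling fragments collected at about 3 hours post-bisection (3 hpb), at 3 days post-bisection (3 dpb) and at 6 dpb. Uncut sibling larvae were collected at the same times, also as 2 libraries per time. They were no part of the contrast, and their levels are given beside the fragments as background. The labels name no genetic change or drug in any group, and all larvae were fed the same alga. Each library is a pool of siblings, so the spread between replicates is that between pools, which need not be siblings of one another.

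In bilaterian larvae, the anterior end forms where Wnt signalling is low and carries a set of transcription factors that includes FoxQ2, Six3, Rx and Nkx2.1, while Wnt ligands, Brachyury, Evx, Cdx and the posterior Hox genes mark the opposite end. Wnt proteins bind Frizzled receptors on the cell surface, and secreted proteins such as Dkk1 and the Sfrp family limit how far the ligand acts. In sea star larvae the mouth and foregut lie towards the front and the stomach, intestine and anus towards the rear, so that a transverse cut through the foregut also divides the digestive tract.

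The question put to these 4 libraries was which genes differed between a fragment that must rebuild a rear end and one that must rebuild a front end. The identity of the loci on which the account turns can be read from the probes that the study designed for them, each 100 bases long and printed as its probe table lists them. They are shown for a transcription factor and a receptor of the anterior end and for a receptor and a ligand of the posterior end, and no base is set in capitals because no motif was sought.
FoxQ2: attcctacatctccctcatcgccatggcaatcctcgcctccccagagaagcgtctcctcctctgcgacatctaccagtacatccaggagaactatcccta
Frizz5/8: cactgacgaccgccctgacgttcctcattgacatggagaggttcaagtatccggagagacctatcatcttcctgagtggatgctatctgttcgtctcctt
Frizz9/10: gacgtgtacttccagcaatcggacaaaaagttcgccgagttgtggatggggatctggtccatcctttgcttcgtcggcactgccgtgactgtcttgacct
Wnt16: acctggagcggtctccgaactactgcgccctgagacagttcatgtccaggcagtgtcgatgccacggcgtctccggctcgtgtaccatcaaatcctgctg

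The *FoxQ2* locus lies on the plus strand of scaffold 13997, from 768 to 10073, in the *P. miniata* v1.0 assembly that the deposited annotation uses. *Frizz5/8* spans 35051 to 40020 on the minus strand of scaffold 4579. *Frizz9/10* spans 15898 to 23305 on the plus strand of scaffold 6583, and *Wnt16* 16345 to 28643 on the minus strand of scaffold 5048. These are the bounds of assembled loci, and where within each locus the exons and the probe fall was not analysed here.

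The 4 fragment libraries held between 16874768 and 20662308 counted reads on annotated loci, and the uncut controls of 3 dpb held 24000186 and 20925269. Levels are given as CPM, the counts of a locus scaled to a common library total, after TMM normalization. A CPM value is not divided by the length of the locus, so it is compared between libraries for 1 gene and not between genes. Of the 80165 loci in the count tables, 31798 passed the low-count filter and were tested. Differences are log2 anterior minus posterior, so that a positive value is higher in the anterior fragment. A locus is called changed where its adjusted p (edgeR's quasi-likelihood test, Benjamini-Hochberg over all tested loci) was under 0.05 and its difference was more than 2-fold. Replicates of the same fragment were themselves more than 2-fold apart at 12085 loci (38.01%) in anterior and 10427 loci (32.8%) in posterior libraries. The replicate difference was shared between fragments of the same number (correlation across loci 0.909 at 3 dpb), and the fit therefore compared fragments within a replicate number.

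In all, 593 loci were higher in anterior fragments, 1.86% of those tested, and 1459 were higher in posterior fragments, 4.59%. The posterior-high differences were also the larger ones, with a median of 9.85-fold among those called against 3.11-fold for the anterior-high loci. A difference of over 16-fold was met by 557 posterior-high loci (38.2%) and by 71 anterior-high loci (11.97%). These medians describe loci that the same test selected, and the median over all tested loci was 1.23-fold. Lower in both libraries of 1 fragment than in both of the other were 515 of the 593 and 1361 of the 1459, against 25.01% of all tested loci. Without the replicate term the counts were 94 and 646, and leaving out 1 of the 4 libraries brought them to 182 to 257 and to 957 to 1070.

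**Figure D1:**
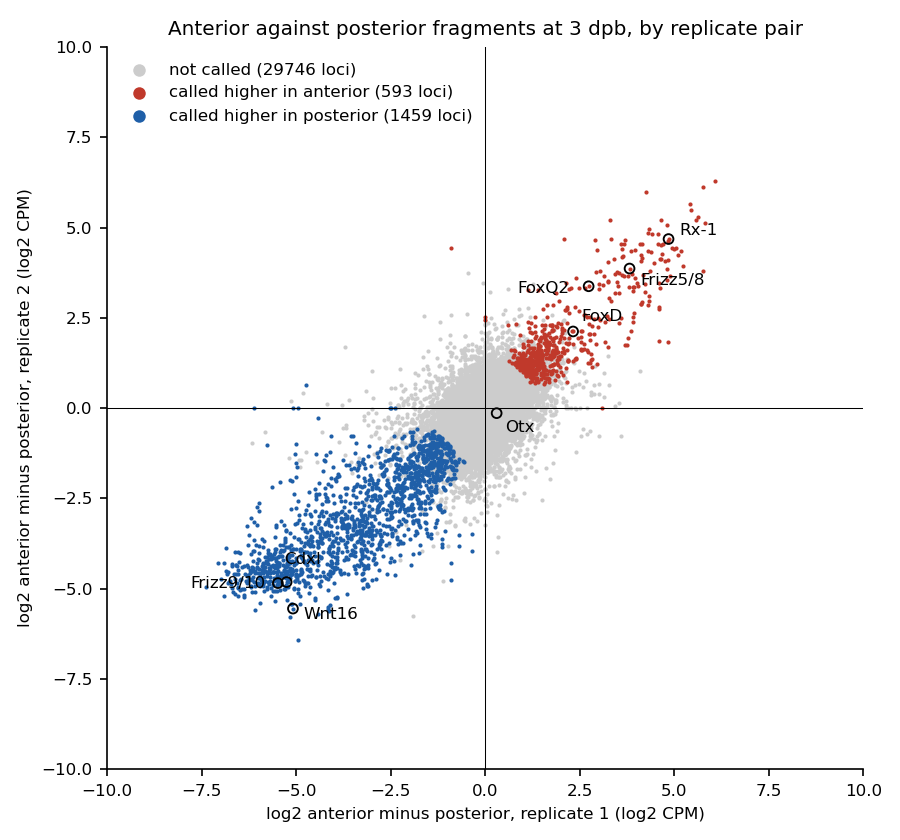
Each point is a tested locus, with the log2 difference between anterior and posterior fragments of replicate 1 on the horizontal axis and of replicate 2 on the vertical axis; called loci are coloured by direction and a few axis genes are circled, with values computed after adding a prior count of 2. In both pairs, 589 of 593 anterior-high and 1452 of 1459 posterior-high loci lie on the same side of 0 as the fitted difference. Among all 31798 tested loci this held for 21924. The calls were made from these same pairs, so the agreement of called loci follows in part from their selection.

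The posterior-high loci together took 7.92% and 5.54% of the counts in posterior libraries, 1.03% and 0.840% in anterior libraries, and 5.82% and 4.64% in uncut larvae. The anterior-high loci took 2.12% and 1.67% of the counts in anterior libraries, 0.653% and 0.607% in posterior libraries, and 1.37% and 0.996% in uncut larvae. For most called loci the uncut larva, which holds both ends, lay between the fragments. That was so for 572 anterior-high loci (96.5%) and 1207 posterior-high loci (82.7%), against 46.3% of all tested loci, with mean log2 levels taken after adding 0.1 CPM. At 240 posterior-high loci (16.4%) the control exceeded both fragments. In bulk RNA of this kind, fewer cells of a type and less RNA per cell cannot be told apart.

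The regulators of the anterior end were higher in the libraries labelled anterior. Of 14 loci on that list, 9 (64.3%) were called higher in anterior fragments and none higher in posterior fragments. Over all tested loci these shares were 1.86% and 4.59%. The median difference over the list was 1.65 log2 against 0.02 over all tested loci. *FoxQ2*, a forkhead factor of the apical territory in embryos of many animals, stood at 30.9 and 30.7 CPM in the anterior libraries and at 4.57 and 2.88 CPM in the posterior ones, with uncut larvae at 3.36 and 6.21 CPM. Both anterior libraries were above every posterior and control library, a difference of 3.02 log2 (SE 0.75, adjusted p = 0.031 by edgeR, n = 2 per fragment). *Nkx2.1*, a homeodomain factor of the apical ectoderm and foregut, was at 221 and 158 CPM in anterior, 21.8 and 20.2 CPM in posterior and 104 and 91.5 CPM in uncut libraries, 8.91-fold higher in anterior (SE 0.27 log2, adjusted p = 1.5e-05 by edgeR).

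Retinal homeobox genes, named for their part in the vertebrate eye field, showed some of the widest margins of this group. *Rx-1* was read at 39.1 and 12.1 CPM in anterior libraries, 1.27 and 0.384 CPM in posterior libraries and 14.3 and 6.01 CPM in uncut larvae, a 30.1-fold difference (adjusted p = 1e-05 by edgeR). *Rx-2* differed 17.7-fold, with 80.1 and 32.4 CPM against 3.81 and 2.24 CPM (adjusted p = 4.9e-06 by edgeR). The first replicate was the higher one in both fragments, and the groups did not overlap for either gene. *Chx10*, another homeobox gene of the vertebrate retina and 1 of the 12 largest anterior differences, was at 15.8 and 9.60 CPM against 0.719 and 0.384 CPM, 4.52 log2 higher in anterior.

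*Zic*, a zinc finger factor of neural and apical tissue, was at 57.2 and 78.3 CPM in anterior and 5.71 and 2.05 CPM in posterior libraries, 17.6-fold apart (SE 0.46 log2, adjusted p = 0.00011 by edgeR). The LIM homeobox gene *Lhx2/9*, which the authors' table names Limc1, was at 29.7 and 12.9 CPM against 1.40 and 1.41 CPM, 14.4-fold apart. *Six3*, a homeobox repressor of posterior fates in vertebrate forebrain, differed less, at 131 and 221 CPM against 44.1 and 53.2 CPM, 3.52-fold (adjusted p = 0.00091 by edgeR). *Hbn* (homeobrain) was 2.34-fold higher in anterior, at 28.3 and 21.96 CPM against 12.8 and 8.83 CPM. For all 4 of these genes both anterior libraries stood above both posterior ones, with the uncut larvae between them.

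Other members of the list did not pass. *Otx*, a head homeobox gene that echinoderm embryos also use in endoderm, was at 261 and 146 CPM in anterior and 212 and 162 CPM in posterior libraries, a difference of 0.09 log2 with overlapping groups (adjusted p = 0.90 by edgeR). *Pax6*, *Soxb2* and *SoxB1* had differences of 0.04, 0.08 and 0.34 log2. *FoxG*, a forebrain factor in vertebrates, was at 96.5 and 67.1 CPM against 46.5 and 38.5 CPM, with an adjusted p of 0.042 by edgeR but a difference of 0.93 log2, under the 2-fold limit. Leaving out any single fragment library ended the calls of *FoxQ2* and *Hbn* (adjusted p 0.078 to 0.28 over those fits), and 1 replicate term shared by all times ended that of *FoxQ2* (adjusted p = 0.11), while the other 6 named calls held in every such fit.

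**Figure D2:**
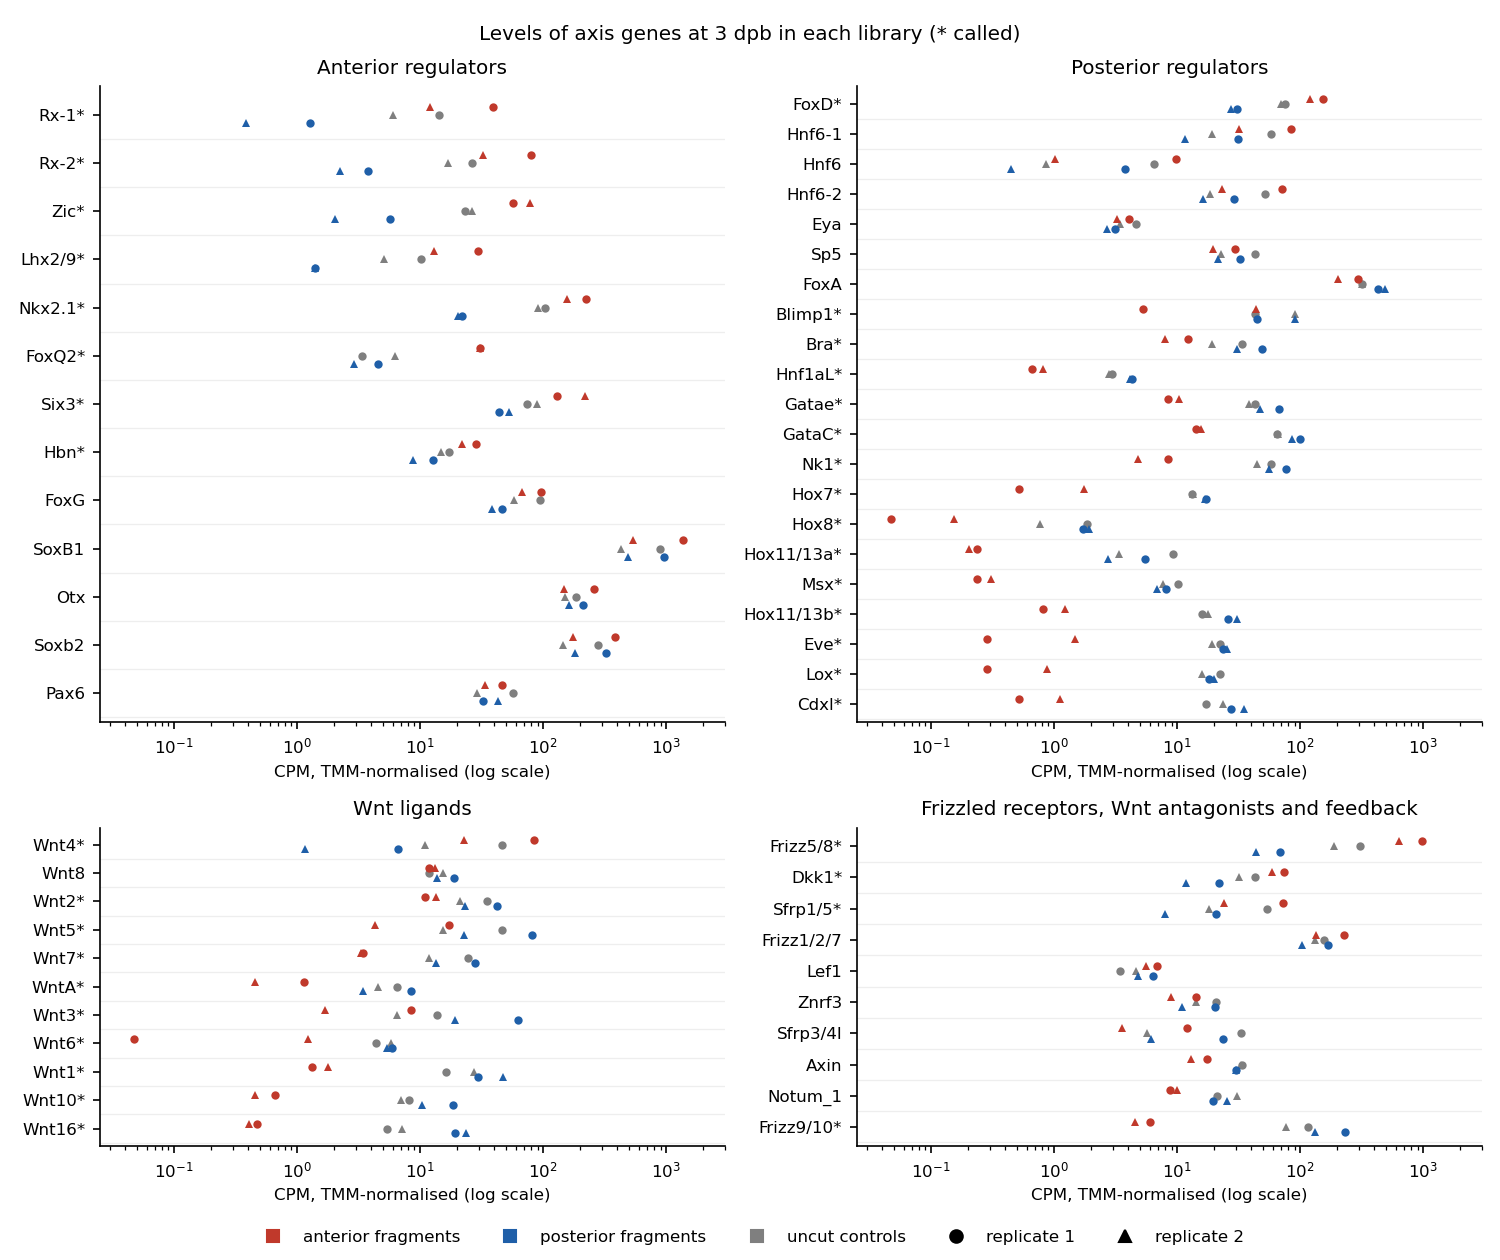
TMM-scaled CPM on a log axis for the named axis genes in the 2 anterior, 2 posterior and 2 uncut libraries of 3 dpb, 1 point per library, with an asterisk at called genes. *Frizz5/8* runs from 43.4 CPM in a posterior library to 972 CPM in an anterior one, and *Frizz9/10* from 4.54 CPM in an anterior library to 233 CPM in a posterior one.

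The regulators of the posterior end showed the reverse, and several were close to 0 in anterior fragments. On that list of 34 loci under 22 names, 19 (55.9%) were called higher in posterior and 1 (2.94%) higher in anterior. Over all tested loci these shares were 4.59% and 1.86%. The list median was -2.24 log2. *Cdxl*, of the Cdx family of hindgut homeobox genes, was at 0.522 and 1.12 CPM in anterior, 27.4 and 34.9 CPM in posterior and 17.1 and 23.5 CPM in uncut libraries (38.7-fold, SE 0.52 log2, adjusted p = 4.1e-05 by edgeR). *Lox*, the sea star member of the Xlox group of gut homeobox genes, was at 0.284 and 0.868 CPM against 18.3 and 19.8 CPM, 33.2-fold lower in anterior fragments. *Eve*, an even-skipped homeobox gene, was at 0.284 and 1.48 CPM against 23.6 and 25.4 CPM, with a 29.0-fold difference and an adjusted p of 0.0023 by edgeR. All posterior and control libraries lay above all anterior libraries for these 3 genes, and the highest anterior library stood at 1.48 CPM.

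Of 7 tested Hox loci, 5 were called higher in posterior and none higher in anterior fragments, beside 4.59% and 1.86% of all tested loci. *Hox11/13b* was at 0.806 and 1.23 CPM in anterior and 25.9 and 30.4 CPM in posterior libraries, 27.8-fold apart (adjusted p = 0.0023 by edgeR). *Hox7* was at 0.522 and 1.74 CPM against 17.2 and 16.8 CPM, 15.7-fold apart. *Hox11/13a* was at 0.237 and 0.204 CPM against 5.45 and 2.75 CPM, 18.2-fold apart. The control levels of these genes, for example 13.3 and 13.5 CPM for *Hox7*, sat on the posterior side of the gap. *Hox8* had only 4 counts in the 2 anterior libraries together and 71 in the posterior ones, a ratio of 18.4 with an exact 95% interval of 6.87 to 69.3 that covers counting error only. A second locus named Hox7 (XLOC_042280) was at 4.36 and 1.28 CPM against 4.65 and 2.62 CPM and was not called (-0.51 log2, adjusted p = 0.54 by edgeR), nor was a second one named Hox11/13a (XLOC_041137, adjusted p = 0.082).

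Some of these posterior-high genes were neighbours in the assembly. *Hox11/13a* (2611 to 5711), *Hox8* (14884 to 39327) and *Hox7* (60512 to 74162) lie on scaffold 467 in that order. *Cdxl* (6618 to 15508) and *Lox* (27136 to 64608, with a second *Lox* locus at 24154 to 27074) share scaffold 2936. The ligand genes *Wnt6* (5401 to 12792) and *Wnt1* (19274 to 43302) share scaffold 3609. Every locus named in this paragraph was called higher in posterior fragments.

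*Msx*, a homeobox gene downstream of BMP signalling in many embryos, was at 0.237 and 0.306 CPM against 8.07 and 6.84 CPM, -4.75 log2. *Eya*, a transcriptional co-activator, had a difference of 0.34 log2 in the other direction and was not called. *Hnf6*, also on this list, leaned further that way at its 3 loci, by 1.43, 1.32 and 0.91 log2. None of these was called (adjusted p 0.054 to 0.24 by edgeR). *Nk1* differed 10.2-fold, at 8.49 and 4.80 CPM against 77.0 and 55.6 CPM, although its locus overlaps another of that name and reads of the 2 may not be separable. The further loci named Nk1 (XLOC_010101, XLOC_010105 and XLOC_025218) were not called. Their differences were -1.16, -0.84 and -1.15 log2 (adjusted p 0.17 to 0.50 by edgeR).

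The endoderm and mesoderm factors of the GATA family differed by less, *GataC* 6.19-fold and *Gatae* 6.05-fold. *Bra* (Brachyury), which marks blastopore and hindgut in echinoderm embryos, was at 12.3 and 7.96 CPM in anterior and 49.2 and 30.6 CPM in posterior libraries, 3.92-fold apart (SE 0.34 log2, adjusted p = 0.0033 by edgeR). *Blimp1* was at 5.26 and 43.6 CPM against 44.9 and 90.3 CPM, so that the second anterior library nearly reached the first posterior one, and its adjusted p was 0.032 by edgeR. *FoxA*, an endoderm forkhead gene also used in the foregut, was at 293 and 203 CPM against 427 and 487 CPM, with an adjusted p of 0.051. With 1 exception, the called members of both lists moved the way the libraries are labelled. *FoxD* went against the name of its list, at 154 and 120 CPM in anterior and 30.7 and 27.5 CPM in posterior libraries, 4.68-fold higher in anterior (adjusted p = 1.5e-05 by edgeR). Of the 16 genes called on this list, 1 locus counted per name, *Blimp1*, *Bra*, *Eve*, *Hnf1aL*, *Hox11/13b*, *Hox8* and *Msx* lost the call when at least 1 of the 4 libraries was left out (adjusted p 0.050 to 0.33), and *Blimp1* and *Hnf1aL* also with 1 replicate term for all times (adjusted p 0.25 and 0.076).

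Among the 18 gene lists examined, that of the Wnt ligands had the highest share of called loci. Of 18 ligand loci, 14 (77.8%) were higher in posterior fragments and 1 (5.56%) was higher in anterior fragments. Over all tested loci these shares were 4.59% and 1.86%. The 18 loci carry 11 names, so several of them share a name, and the list median was -2.99 log2. *Wnt16* was at 0.474 and 0.408 CPM in anterior, 19.1 and 23.4 CPM in posterior and 5.39 and 7.06 CPM in uncut libraries, 47.1-fold apart (SE 0.72 log2, adjusted p = 0.00035 by edgeR). Here the posterior libraries stood above the uncut larvae as well. *Wnt1*, a hindgut and segment-border ligand in other animals, was at 1.33 and 1.79 CPM against 29.5 and 47.5 CPM, 24.3-fold apart, and *Wnt10* was 25.1-fold apart. *Wnt3* differed 8.63-fold, at 8.39 and 1.69 CPM in anterior, 61.9 and 19.1 CPM in posterior and 13.8 and 6.49 CPM in uncut libraries, so that every group was higher in its first replicate and the fragments still did not overlap.

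*Wnt5*, a ligand best known for signalling outside the β-catenin branch, was 4.97-fold higher in posterior fragments, at 81.2 and 22.6 CPM against 17.1 and 4.29 CPM. *Wnt6*, *WntA*, *Wnt7* and *Wnt2* were also called higher in posterior, with differences of -3.33, -2.88, -2.52 and -1.33 log2. The *Wnt2* locus is so called after the study's probe, and the authors' table names it Wnt7. *Wnt8* was not called at either of its loci, with 11.9 and 13.3 CPM against 18.9 and 13.8 CPM at the more abundant of them (-0.38 log2, adjusted p = 0.65 by edgeR). The exception in direction was the locus of the study's *Wnt4* probe, which the authors' table names Wnt5. It was read at 83.8 and 22.7 CPM in anterior, 6.64 and 1.15 CPM in posterior and 46.5 and 10.9 CPM in uncut libraries, 15.0-fold higher in anterior (adjusted p = 2.5e-05 by edgeR). The authors' names and probes thus disagree here too, and another locus named Wnt4 was not called (0.71 log2, adjusted p = 0.25). A locus named Wnt4_2 went the other way and was called higher in posterior (-4.86 log2, adjusted p = 0.0050 by edgeR). It was at 0.379 and 0.817 CPM in anterior and 17.5 and 17.1 CPM in posterior libraries. Leaving out at least 1 of the 4 libraries ended the calls of *Wnt1*, *Wnt10*, *Wnt2*, *Wnt6*, *Wnt7* and *WntA* (adjusted p 0.051 to 0.34).

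The 3 named Frizzled receptors differed in direction. *Frizz5/8* was at 972 and 634 CPM in anterior, 68.9 and 43.4 CPM in posterior and 308 and 187 CPM in uncut libraries, 14.3-fold higher in anterior (SE 0.22 log2, adjusted p = 3.2e-06 by edgeR). *Frizz9/10* was at 6.02 and 4.54 CPM in anterior, 233 and 131 CPM in posterior and 115 and 77.3 CPM in uncut libraries, 33.5-fold higher in posterior (SE 0.48 log2, adjusted p = 3.1e-05 by edgeR). *Frizz1/2/7*, at 227 and 134 CPM against 167 and 103 CPM, overlapped between the fragments and had a difference of 0.41 log2 (adjusted p = 0.30). A second locus that carries the name Frizz9/10 was also called higher in posterior, by a smaller difference of -1.18 log2 (adjusted p = 0.033 by edgeR). It was at 100 and 55.8 CPM in anterior and 226 and 126 CPM in posterior libraries.

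Of 18 loci for secreted antagonists and feedback genes of the pathway, 2 (11.1%) were higher in anterior and 4 (22.2%) higher in posterior, with a median of -0.91 log2. Over all tested loci these shares were 1.86% and 4.59%. *Dkk1*, which blocks the Lrp co-receptor, was at 74.3 and 59.2 CPM in anterior and 21.9 and 11.9 CPM in posterior libraries, 4.08-fold higher in anterior (SE 0.24 log2, adjusted p = 0.00015 by edgeR). *Sfrp1/5*, a soluble Frizzled-related protein, was 3.25-fold higher in anterior, at 71.8 and 24.1 CPM against 20.8 and 7.93 CPM, with the second anterior library only just above the first posterior one. Its call was lost in fits without 1 library (adjusted p 0.058 to 0.12). All 4 posterior-high loci carry the name Sfrp3/4I, which 9 tested loci share, and the most abundant of them had a difference of -0.88 log2 and was not called. The feedback genes *Axin* (-0.98 log2, adjusted p = 0.10) and *Notum_1* (-1.26 log2, adjusted p = 0.14), and *Znrf3* and *Lef1*, did not pass.

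Other signalling pathways that pattern embryos held no called locus, on lists too short to set 0 apart from the 1.86% and 4.59% called over all loci. None of 27 Nodal and BMP loci and none of 17 Hedgehog, FGF and Notch loci passed at 3 dpb by edgeR, with medians of 0.02 and 0.18 log2. The members of these lists lay between -1.55 and 1.00 log2 and between -1.49 and 0.79 log2. With 2 libraries a fragment, a true difference of 2-fold was recovered for 13% of simulated loci and a 4-fold one for 93%. Recovery was counted by adjusted p and direction alone, and the call adds the 2-fold limit. True differences of about 2-fold in these lists could therefore well have gone uncalled.

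**Figure D3:**
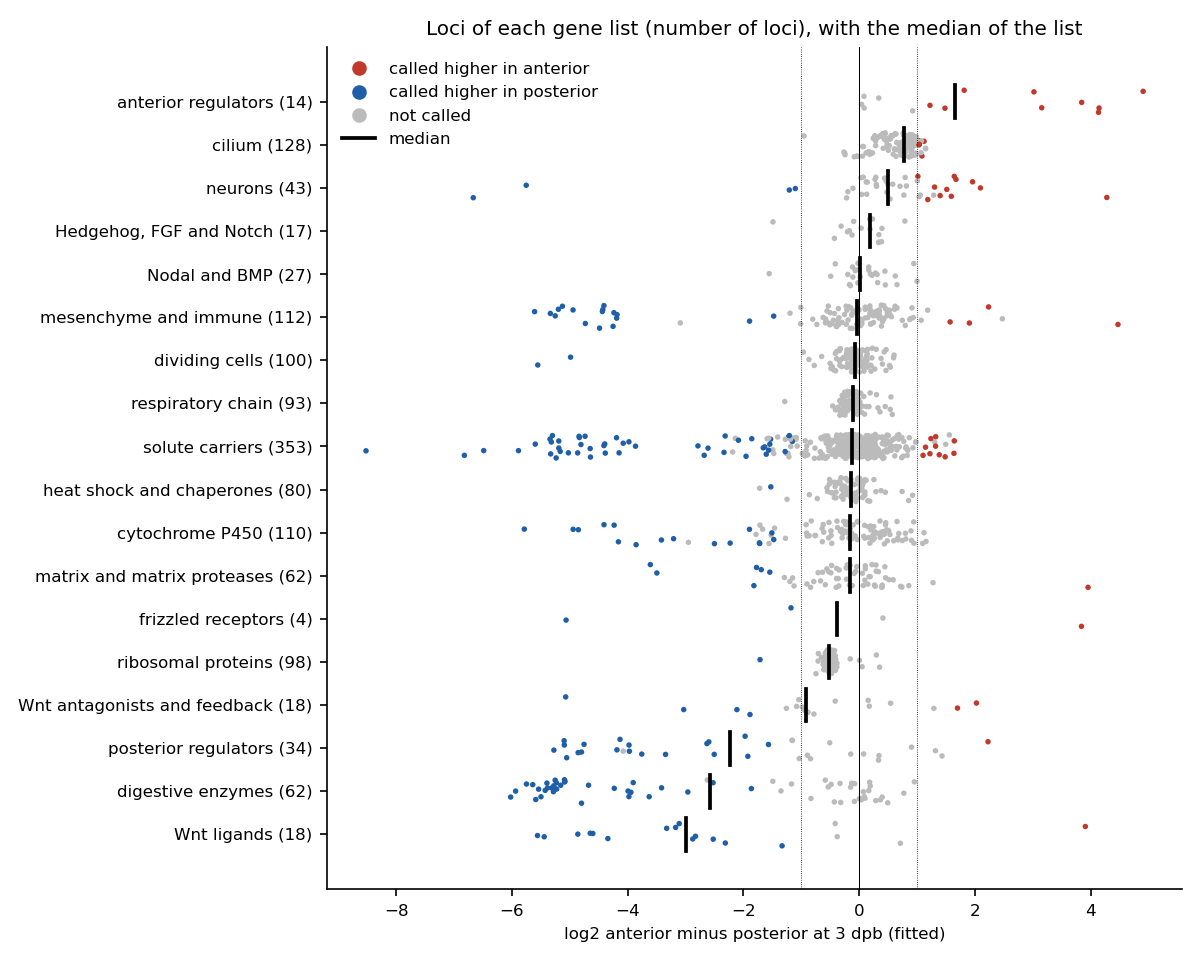
Log2 difference between anterior and posterior fragments at 3 dpb for every locus of each gene list, 1 point per locus, with the list median as a bar and called loci coloured. Wnt ligands (median -2.99) and digestive enzymes (-2.57) lie below 0, anterior regulators (1.65) and cilium loci (0.77) above it.

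Among the anterior-high loci with an informative name, the largest differences included receptors beside the homeobox genes. *Galr2L_4*, named for galanin receptors, was at 24.5 and 15.1 CPM in anterior, 0.423 and 0.320 CPM in posterior and 9.17 and 5.87 CPM in uncut libraries, 5.72 log2 higher in anterior. *Gpr112L*, named for an adhesion G protein-coupled receptor, differed by 5.05 log2. The zinc finger gene *Znf280c* had the highest value, 5.99 log2, at 9.29 and 23.7 CPM against 0.127 and 0.384 CPM. All 12 of the largest anterior differences held in each fit without 1 library.

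The 12 largest posterior-high differences included enzymes, recognition proteins and a transcription factor. *Klf15*, a Krüppel-like zinc finger factor, had 6 counts in the 2 anterior libraries together and 499 in the posterior ones, a ratio of 86.1 (exact 95% interval 39.3 to 236, counting error only). *ReelerL_7*, named for the reeler domain, was at 4.65 and 5.31 CPM in anterior and 323 and 262 CPM in posterior libraries, -5.87 log2. *Tmprss5L*, named for a membrane-bound serine protease, was at 2.65 and 5.004 CPM against 280 and 175 CPM, -5.85 log2. Loci of like name stood on both sides, *Apn7* at -6.09 log2 and *Apn5b*, among the largest anterior differences, at 4.93 log2. *Pgrp3*, named for proteins that bind bacterial peptidoglycan, differed by -5.76 log2 and *Cyp2L54*, a cytochrome P450, by -5.79 log2. *Serp-2* was by far the highest in counts, at 38.1 and 107 CPM in anterior, 3534 and 3334 CPM in posterior and 2788 and 2536 CPM in uncut libraries, -5.67 log2 (adjusted p = 8.6e-06 by edgeR). Of these 12, *Klf15* alone lost its call when a library was left out (adjusted p 0.063 to 0.17).

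Many digestive enzymes were lower in anterior fragments. Of 62 loci, 32 (51.6%) were higher in posterior and none in anterior, beside 4.59% and 1.86% of all tested loci. The list median was -2.57 log2. The summed level of the list was 753 and 1331 CPM in anterior against 4276 and 5342 CPM in posterior libraries. The starch-cleaving amylase *Amy2* was at 6.97 and 15.6 CPM in anterior, 382 and 367 CPM in posterior and 377 and 280 CPM in uncut libraries, -5.09 log2 (adjusted p = 4.8e-05 by edgeR). *Anpep*, the brush-border aminopeptidase N, was at 4.03 and 23.1 CPM against 459 and 538 CPM, -5.50 log2. The second anterior library was the higher of the pair for both genes, yet far under every posterior library.

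By family, the share of called loci varied, and the differences between families were not tested. The posterior-high difference was called at 6 of 6 aminopeptidase N loci, 9 of 10 carboxypeptidase A loci, 4 of 5 amylase loci, 2 of 2 maltase-glucoamylase loci, 5 of 8 alkaline phosphatase loci and 3 of 5 lactase loci. *Apn5b*, 4.93 log2 higher in anterior, is not on this list, and what Apn stands for is not given in the sources used here. The posterior-high difference was called at 0 of 7 loci named for trypsin, whose differences lay between -0.53 and 0.37 log2, and at 3 of the other 19 loci of the list, beside 4.59% of all tested loci. Loci that share a name were counted separately, and how reads that fit several copies were divided between them is not given in the sources used here.

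Genes of uptake and detoxification followed in part. Among cytochrome P450 loci 16 of 110 were higher in posterior and none in anterior, and among solute carriers, the membrane transporters, 47 of 353 were higher in posterior and 10 in anterior. The posterior shares, 14.5% and 13.3%, compare with 4.59% of all tested loci, and the anterior share of the solute carriers, 2.83%, with 1.86%. The medians of both lists, -0.16 and -0.12 log2, stayed near that of all loci. *Slc2a1*, a glucose transporter, was at 156 and 64.5 CPM in anterior and 378 and 228 CPM in posterior libraries, -1.54 log2, and its locus overlaps another. *Cyp2L5* was at 0.522 and 5.62 CPM against 18.4 and 49.0 CPM, -3.85 log2. The 4 named P450 calls held without any 1 library, and those of the 4 named solute carriers did not (adjusted p 0.052 to 0.61).

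On the list of mesenchyme and immune genes the 21 calls fell on scavenger receptor cysteine-rich (SRCR) genes, which make up 75 of its 112 loci, a family of surface and secreted recognition proteins that is large in echinoderms. Of the 112 loci, 17 (15.2%) were higher in posterior and 4 (3.57%) in anterior, beside 4.59% and 1.86% of all tested loci, and the list median was -0.03 log2. *Srcr210* was at 42.2 and 41.4 CPM in anterior, 836 and 970 CPM in posterior and 122 and 357 CPM in uncut libraries, -4.41 log2 (adjusted p = 0.00046 by edgeR). Both posterior libraries thus exceeded the controls. One locus named Srcr28 (XLOC_021349) was instead 4.47 log2 higher in anterior fragments, and another of that name (XLOC_030343) had a difference of -4.44 log2, so the shared name covers loci of opposite direction.

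Neuronal genes leaned to the anterior side. Of 43 loci, 11 (25.6%) were higher in anterior and 4 (9.30%) in posterior, with a median of 0.50 log2. Both shares exceeded those of all tested loci, 1.86% and 4.59%. *Slc18a2*, the vesicular monoamine transporter, was at 18.1 and 15.9 CPM in anterior and 5.12 and 5.76 CPM in posterior libraries, 1.65 log2 (adjusted p = 0.016 by edgeR). *Th*, tyrosine hydroxylase of dopamine synthesis, differed by 1.59 log2, and the most abundant locus for *Vacht*, the vesicular acetylcholine transporter, by 1.02 log2. A locus for *Tph*, the first enzyme of serotonin synthesis, went the other way, at 7.30 and 7.20 CPM against 14.1 and 17.1 CPM (-1.10 log2, adjusted p = 0.019), as did another *Vacht* locus (XLOC_002791, -1.21 log2) and 2 loci named Syt7L_1. The 4 most abundant called members (*Slc18a2*, *Tph* and 2 *Vacht* loci) lost their calls both when 1 library was left out and with 1 replicate term for all times (adjusted p 0.059 to 0.24 in the latter).

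Genes of the cilium, the beating structure that drives larval swimming and feeding, were shifted by a small and even amount. At 121 of 128 loci (94.5%) the difference was positive, against 51.5% of all tested loci, and the median was 0.77 log2. Yet only 5 loci (3.91%) passed both limits as higher in anterior, beside 1.86% of all tested loci. The summed level of the list was 8070 and 16188 CPM in anterior and 4866 and 8972 CPM in posterior libraries, so the 2 replicates of a fragment differed as much as the fragments did. *Tektin3*, a protein of axonemal microtubules, was at 248 and 516 CPM against 111 and 253 CPM, 1.09 log2 (adjusted p = 0.030 by edgeR). *Hydin*, of the central pair apparatus, differed by 1.04 log2. None of the 4 most abundant calls held in every fit without 1 library (adjusted p 0.080 to 0.53 where lost), and all 4 were lost with 1 replicate term for all times (adjusted p 0.056 to 0.16). Ribosomal protein loci had the reverse lean, negative at 94 of 98 (95.9%) with a median of -0.52 log2. Their summed levels were 32965 and 28602 CPM against 42590 and 45353 CPM. Only 1 of them (1.02%) was called higher in posterior, beside 4.59% of all tested loci.

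The remaining lists held few calls. Dividing-cell genes had a median of -0.07 log2, and both of their 2 calls were adjacent loci named Pnca, at 0.427 and 1.07 CPM in anterior against 39.02 and 30.7 CPM in posterior libraries for the longer one (-5.55 log2). That name could stand for a replication clamp or for a bacterial enzyme, and which protein was meant is not given in the sources used here. Respiratory chain genes had no call among 93 loci by edgeR (median -0.11 log2). Heat shock and chaperone genes had 1 among 80 (1.25%, higher in posterior, median -0.14 log2). Over all tested loci, 1.86% were called higher in anterior and 4.59% higher in posterior. Among 62 matrix and matrix protease loci, 6 (9.68%) were higher in posterior and 1 (1.61%) in anterior, beside 4.59% and 1.86% of all tested loci. The 6 included the basement membrane collagen *Col4a2* (-1.69 log2) and *Sparc_2* (-1.77 log2). Both lost the call in each fit without 1 library (adjusted p 0.16 to 0.39 and 0.065 to 0.11), and *Col4a2* also with 1 replicate term for all times (adjusted p = 0.13). The 1 anterior-high matrix locus, *Mt1-4/MmpL3*, rested on replicate 2 (89.97 CPM against 4.09 CPM, with 0.0474 and 0.169 CPM in replicate 1) and turned to -1.96 log2 without posterior replicate 2.

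The same contrast was fitted at the other 2 collection times, with separate fragment pools. At 3 hpb, 781 loci were higher in anterior (2.46%) and 2326 in posterior (7.31%), and at 6 dpb 1759 were higher in anterior (5.53%) and 1632 in posterior (5.13%). Of the 593 anterior-high loci of 3 dpb, 430 (72.5%) were also called at 3 hpb and 369 (62.2%) at 6 dpb, which are 55.1% and 21.0% of the calls at those times. Of the 1459 posterior-high loci, 1346 (92.3%) were also called at 3 hpb and 1160 (79.5%) at 6 dpb, which are 57.9% and 71.1% of the calls there. Only 1 locus was called in opposite directions at 3 and 6 dpb, and none at 3 hpb and 3 dpb.

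Tests of the change in the difference itself found little at this replication. From 3 hpb to 3 dpb no locus passed by edgeR at an adjusted p under 0.05 (0%), with 960 loci at an unadjusted p under 0.05 and 11 calls by DESeq2's Wald test. From 3 to 6 dpb 2 loci passed (0.00629%), with 1414 at an unadjusted p under 0.05 and 98 calls by DESeq2. In order of collection, the median of the anterior regulators was 2.90, 1.65 and 0.99 log2, that of the Wnt ligands was -2.80, -2.99 and -2.89, and that of all tested loci was 0.11, 0.02 and -0.03.

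*Frizz5/8*, which is listed with the Frizzled receptors and not with the anterior regulators, is given here by its levels at the 3 times. In posterior fragments it was read at 22.9 and 25.5 CPM at 3 hpb, 68.9 and 43.4 CPM at 3 dpb and 294 and 166 CPM at 6 dpb. In anterior fragments it was at 556 and 724 CPM, 972 and 634 CPM, and 965 and 807 CPM. The posterior libraries of the 3 times did not overlap and the anterior ones did, and the difference between fragments was 4.72, 3.84 and 2.01 log2. Its change from 3 to 6 dpb was -1.84 log2 with an adjusted p of 0.13 by edgeR.

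*Rx-1* was at 0.471 and 0.0852 CPM, 1.27 and 0.384 CPM, and 6.62 and 2.90 CPM in posterior fragments of the 3 times, and its difference went from 4.91 log2 at 3 dpb to 2.26 at 6 dpb (change -2.65, adjusted p = 0.26 by edgeR). *FoxQ2* was at 25.6 and 13.1 CPM in posterior fragments at 6 dpb, and its change of -1.91 log2 had an adjusted p of 1. *Nkx2.1*, *Zic*, *Lhx2/9* and *Rx-2* also had smaller differences at 6 than at 3 dpb, with changes of -1.40, -1.80, -1.89 and -2.11 log2, and none of these changes passed. In anterior fragments the posterior receptor *Frizz9/10* stayed low at the locus of the study's probe. There it was at 10.4 and 8.66 CPM at 3 hpb, 6.02 and 4.54 CPM at 3 dpb and 15.9 and 2.11 CPM at 6 dpb. The differences were -4.81, -5.06 and -4.96 log2. Other posterior genes varied. *Hox7*, *Eve* and *Cdxl* had smaller differences at 6 than at 3 dpb, with changes of 1.89, 1.35 and 1.34 log2. *Hox11/13a* and *Lox* had larger ones, with changes of -2.23 and -1.13 log2, and none of these changes passed. *Eve* was at 6.59 and 0.302 CPM in the anterior libraries of 6 dpb.

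**Figure D4:**
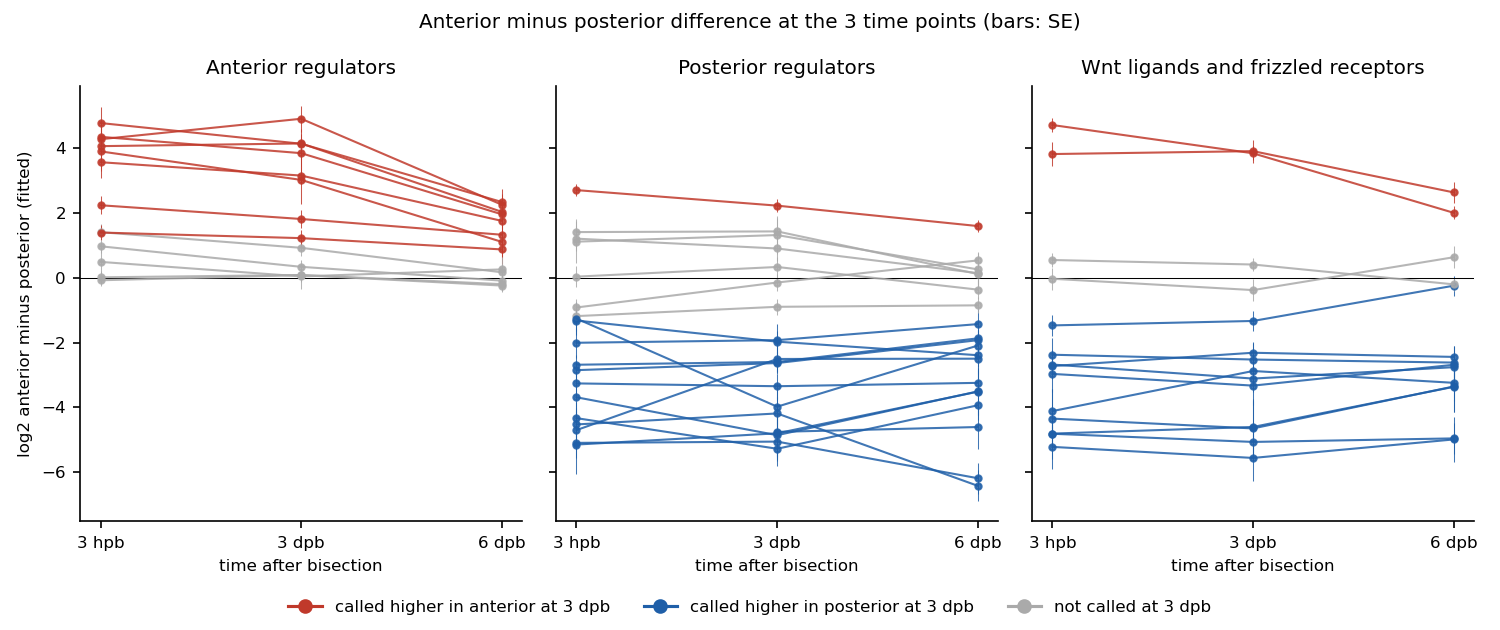
Log2 anterior minus posterior difference by collection time (3 hpb, then 3 and 6 dpb) for the named axis genes, 1 line per gene coloured by its call at 3 dpb, bars showing the SE and points left out where a fragment had 3 counts or fewer in both libraries. The lines of called anterior-high genes, *Frizz5/8* among them (4.72, 3.84 and 2.01), lie closer to 0 at 6 than at 3 dpb, while those of posterior-high genes vary in course, *Frizz9/10* running level (-4.81, -5.06 and -4.96).

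Cilium genes had median differences of 0.64, 0.77 and 0.80 log2, while 1, 5 and 41 of their loci were called higher in anterior at the 3 times in order of collection. These are 0.781%, 3.91% and 32.0% of the list, beside 2.46%, 1.86% and 5.53% of all tested loci. Dividing-cell genes had medians of 0.35, -0.07 and -1.08 log2. At 6 dpb 26 of 100 loci were higher in posterior and 2 in anterior, beside 5.13% and 5.53% of all tested loci. Digestive enzymes remained lower in anterior fragments at each time by their medians, -2.93, -2.57 and -1.96 log2. The differences of these medians between times were not tested.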

How the data were processed

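PolyA RNA libraries (TruSeq) were sequenced by the authors from pooled fragments. Per the labels and the study's methods, reads were handled with CASAVA 1.8, TopHat2 2.0.12, SAMtools, Cufflinks 2.2.1 and HTSeq 0.6.1p1 on the *P. miniata* v1.0 assembly, and the deposited values are raw whole-number counts per locus. The strand setting of counting is not given in the sources used here, so overlapping loci (3418 of those tested) and loci of the same name may share reads. A deposited table of the authors' own log2 fold changes was not used beyond its gene names.

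Counts were fitted with edgeR 4.0.16 (R 4.3.3), TMM-scaled, with quasi-likelihood tests over 18 libraries, 9 fragment-by-time groups and replicate number within each time, which left 6 residual degrees of freedom. A locus entered the tests if 2 or more libraries exceeded 3 CPM. The study's methods correct for sample batch without defining it, and replicate number within a time was used for it. Replicate differences of groups collected at the same time correlated across loci (r 0.742 to 0.916 over 9 pairs of groups), against 0.179 to 0.675 between times. P-values measure the spread between pools that remains once the replicate difference shared within a time is taken out. The SE is the log2 difference divided by the root of its F value. Fits were tested on simulated data over 31798 loci, where 13% of 2-fold and 93% of 4-fold changes at 3 dpb were recovered with 8 false calls. Recovery and false calls were counted without the 2-fold limit.

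The alternatives were DESeq2 1.42.0, its size factors, library size alone, other count filters, other replicate terms, fewer libraries in the fit and each replicate left out. The members and gene lists were chosen with earlier results of these data known, and lists were trimmed by the names in the tables. Named genes are the members of the axis lists, the 12 largest called differences in each direction that have an informative name, the same sign in both pairs and at least 10 CPM in the higher group, and up to 4 called members of highest mean CPM per other list. *Th*, the locus named Wnt4_2, second loci of a name (Srcr28, *Vacht*, *Lox*, Frizz9/10, Syt7L_1) and the digestive families were singled out after their values were seen. So were the further loci named Nk1 and the posterior genes given for their change over time. Intervals of summed counts are exact binomial and cover counting error only. One member of the posterior list is counted with the others and its values are not reported here.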

Additional observations from a re-analysis of the deposited data

Results flagged for a closer look

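The difference between fragments changed from 3 to 6 dpb at 2 loci by the test of that change, both without a name in the authors' table. XLOC_061902 (scaffold 6188, 4932 to 7771) was at 3.98 and 19.9 CPM in anterior and 240 and 605 CPM in posterior fragments at 3 dpb, and at 0.207 and 1.26 CPM against 212 and 728 CPM at 6 dpb. Its difference changed by -4.09 log2 (adjusted p = 0.037 by edgeR), with both anterior libraries lower at the later time. XLOC_077556 (scaffold 9301, 24986 to 25340) changed by 3.97 log2 (adjusted p = 0.037 by edgeR). Its value rests on replicate 2, with 67.7 CPM in anterior, 4.93 CPM in posterior and 73.2 CPM in uncut larvae at 6 dpb, beside 0.104, 0 and 0.116 CPM in replicate 1.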

How the results depend on the processing

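The number of anterior-high loci at 3 dpb (593) fell to 210 with 1 replicate block shared by all times and to 94 with no replicate block. It rose to 937 in a fit of the 6 libraries of 3 dpb, to 1045 in one of the 4 fragment libraries, to 1008 with no filter on low counts and to 1144 at an unadjusted p under 0.05. The number of posterior-high loci (1459) was 928 with 1 block, 646 with no replicate block and 2225 with no filter. Leaving out 1 library gave 182 to 257 and 957 to 1070 loci, the lowest of each without posterior replicate 1, where the lone library is assumed to vary like the other groups. The count of changed differences from 3 hpb to 3 dpb (0) was 1 with no filter and 11 by DESeq2. That from 3 to 6 dpb (2) was 0 with 1 block and with no replicate block, 7 by library size alone, 85 with no filter and 98 by DESeq2. Of 107 values of named loci, 56 kept direction and call in every alternative, and of the 89 called, 16 were lost with 1 block, 37 with no replicate block and 22 to 30 without 1 library. The direction turned in fits without 1 library for *Otx* (-0.16 to 0.32 log2), *Pax6* (-0.46 to 0.65), *Soxb2* (-0.034 to 0.20), *Wnt8* (-0.72 to 0.0080), *Lef1* (-0.059 to 0.42) and *Mt1-4/MmpL3* (-1.96 to 4.47), of which only the last was called. The self-test's recovery of 13% of 2-fold changes limits what smaller differences could be seen.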
